A study of Mus musculus with 8 samples.

Results

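The 33 genes described here encode AP-1 proteins, other immediate early transcription factors and the feedback inhibitors of MAP kinase signalling. They were chosen by symbol, with earlier results of these data known, and all 33 were found among the 50686 gene IDs of the count table. RNA was sequenced in bulk from thymic group 2 innate lymphoid cells (ILC2), lymphocytes that make type 2 cytokines such as IL-5 and IL-13. The cells came from C57BL/6 mice carrying the plck-Id1 transgene, in which the proximal Lck promoter drives Id1, an inhibitor of E protein transcription factors, in T lineage cells. They had been transduced with the MIGR1 retrovirus, sorted for GFP and grown in culture with IL-33, IL-25 and IL-7. The 4 groups of 2 libraries were E47-ER (GFP together with E47 fused to the estrogen receptor) and GFP alone, each after 4 h and after 16 h of 4-hydroxytamoxifen, the ligand that releases the activity of the fusion protein. E47 is an E protein encoded by Tcf3. Every group carried the transgene, the vector and the ligand, and no E47-ER library without ligand was used, so the comparison of E47-ER with GFP holds the fusion protein and its activation together. No label tells whether a group's 2 libraries are from different animals, different cultures or 1 culture, so the p-values speak only of the spread among libraries and that spread may be purely technical.

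Immediate early genes are transcribed within minutes of a signal, without new protein synthesis, mostly through kinases such as ERK acting on factors already bound at their promoters. Fos, Jun and Batf family proteins pair through leucine zippers to form AP-1, which in lymphocytes acts beside NFAT on cytokine genes. Many of the same signals also switch on inhibitors of the pathway, among them dual-specificity phosphatases (Dusp), Sprouty and Spred proteins, and the ZFP36 proteins that destabilise short-lived mRNAs.

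Library totals ran from 8813782 to 18677675 counts. The construct could be read from Esr1, the estrogen receptor gene, which had 43.8 to 54.5 CPM (counts scaled to library size) in the 4 E47-ER libraries and 0.211 to 0.932 CPM in the 4 GFP libraries. The 12 ILC2 markers summed to 19405 to 21786 CPM in E47-ER libraries and 24443 to 30454 CPM in GFP libraries. Most of that sum was Il13, Il5 and Il2ra, with means of 7397, 4762 and 3727 CPM. The 12 did not move together. Rora had 151 and 158 CPM in E47-ER cells at 16 h, against 78.6 and 75.4 CPM in GFP cells. At 16 h DESeq2 called 3 of the 12 higher and 4 lower in E47-ER cells. C1qa, Fcer1a and Ncr1 had no counts in any library, the 4 NK cell and ILC1 markers summed to at most 0.216 CPM, and the sums were 6.45 to 14.2 CPM for 5 B cell markers and 4.39 to 8.95 CPM for 6 myeloid markers. The 8 T cell markers summed to 54.7 to 75.4 CPM in E47-ER libraries and 37.3 to 47.5 CPM in GFP libraries. The 4 mast cell and basophil markers summed to 155 to 264 CPM in E47-ER libraries and 168 to 308 CPM in GFP libraries. Single genes carried much of these sums. Trbc1 had 17.3 to 28.7 CPM in E47-ER libraries and 3.86 to 8.92 CPM in GFP libraries. Cd3e had 26.0 to 38.3 CPM over all libraries, and Cd4, Cd8a and Cd8b1 had at most 0.666 CPM. Kit had 130 to 234 CPM and Mcpt8 22.8 to 132 CPM, against at most 1.10 CPM for Cpa3. The part of these cell types in the results below was not tested, and in bulk RNA fewer cells of a type and less RNA per cell cannot be told apart. One library stood apart. Replicate 2 of GFP at 16 h had the lowest total and a mean correlation with the other libraries of 0.954, against 0.980 to 0.983 for the rest. In it, genes with transcripts of up to 1647 bases lay 0.59 above their mean on the log2 scale, and those of 4987 bases or more lay 0.35 below. The main tests below were therefore also run without this library.

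The genes spanned a wide range of levels. The mean over 8 libraries was 100 CPM or more for 11 genes, between 10 and 100 CPM for 12, between 1 and 10 CPM for 5, and under 1 CPM for Batf3, Nr4a2, Fosb, Egr3 and Nr4a3. Per kilobase of transcript, the scale on which genes can be set beside each other, Junb was highest at 323 CPM per kb and was followed by Batf at 305 and Jund at 238. Jdp2 came next at 99.8 CPM per kb, then Ier5 at 81.3, Ier2 at 79.4 and Dusp6 at 79.2. The lowest was Nr4a3 at 0.146 CPM per kb. Fos and Jun, the founding partners of AP-1, stood at 3.33 and 4.14 CPM per kb, far below Junb, Batf and Jund.

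**Figure D1:**
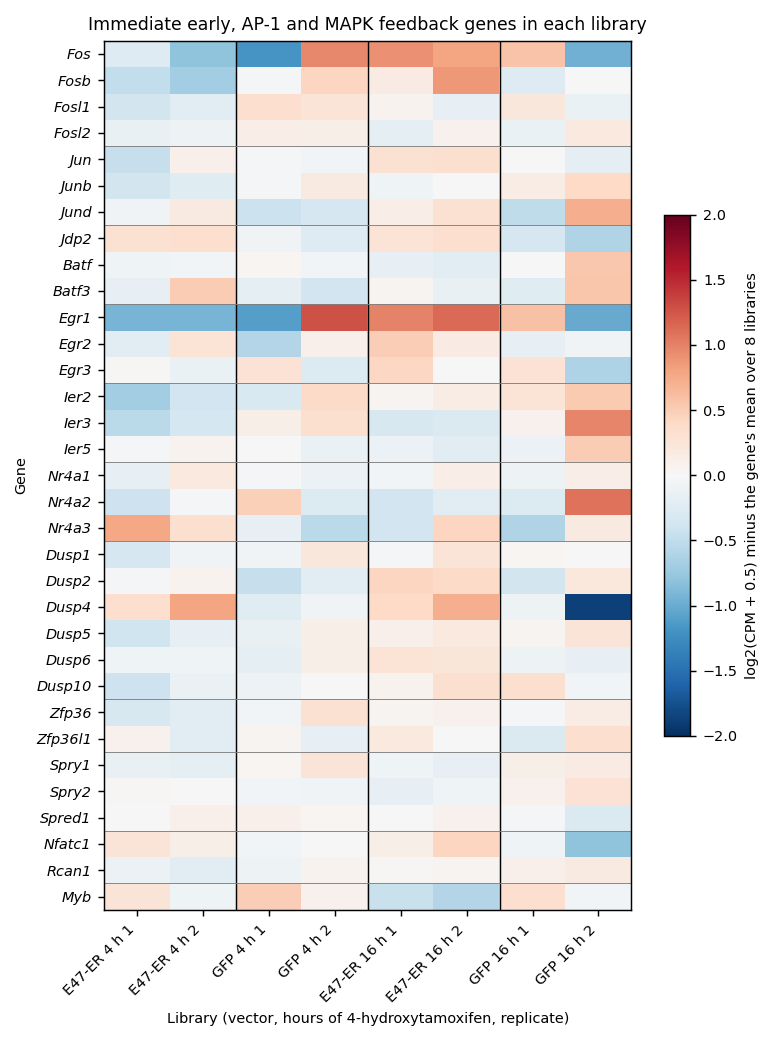
Level of each of the 33 genes (rows, in families) in each library (columns), as log2(CPM + 0.5) minus the gene's mean over the 8 libraries, red above and blue below. Egr1 and Fos are red in replicate 2 of GFP at 4 h, in replicate 1 of GFP at 16 h and in both E47-ER libraries at 16 h, and the last column, replicate 2 of GFP at 16 h, differs more than 2-fold from its partner on this scale for 5 genes, against 2 genes between the GFP replicates at 4 h.

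With all 8 libraries and edgeR's quasi-likelihood test, adjusted by Benjamini and Hochberg over the 13644 genes tested, Jdp2 was the one gene of the 33 that passed an adjusted p of 0.05 in any comparison. At 4 h, 0 of 33 passed, against 0.286% of all genes (0.271% higher and 0.0147% lower in E47-ER cells). At an unadjusted p under 0.05 there were 9 of the 33 at that time, with 794 genes in all, and DESeq2 also called 0. At 16 h, 1 of 33 passed, against 1.59% of all genes (1.25% higher and 0.337% lower). An unadjusted p under 0.05 was reached there by 8 of the 33 and by 3273 of the 13644 genes tested. DESeq2 with all libraries called 4 of the 33 at that time. Without replicate 2 of GFP at 16 h, 7 of the 33 passed at 4 h, 3 higher and 4 lower in E47-ER cells, against a background of 4.33% (2.64% higher and 1.68% lower). At 16 h, 7 passed, 5 higher and 2 lower, against 8.92% (4.39% higher and 4.53% lower). Jdp2, Jund and Dusp4 were then higher and Ier3 lower in E47-ER cells at both times. Junb, Zfp36 and Spry1 were lower at 4 h, Dusp2 and Dusp6 were higher at 16 h and Myb was lower at 16 h. The remaining GFP library at 16 h was there assumed to vary like the other groups. At 4 h both fits hold the same compared libraries and differ in the estimated spread. A fit of the 4 libraries of 1 time alone called 5 of 31 genes at 4 h, against 3.38% of all genes, and 0 of 31 at 16 h, against 0.0458%. The median log2 fold change of the 33 genes was -0.12 at 4 h and 0.03 at 16 h, beside -0.00430 and -0.00573 for all genes tested. With the GFP library that stood apart left out, the median of the 33 was -0.12 at 4 h and 0.09 at 16 h.

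**Figure D2:**
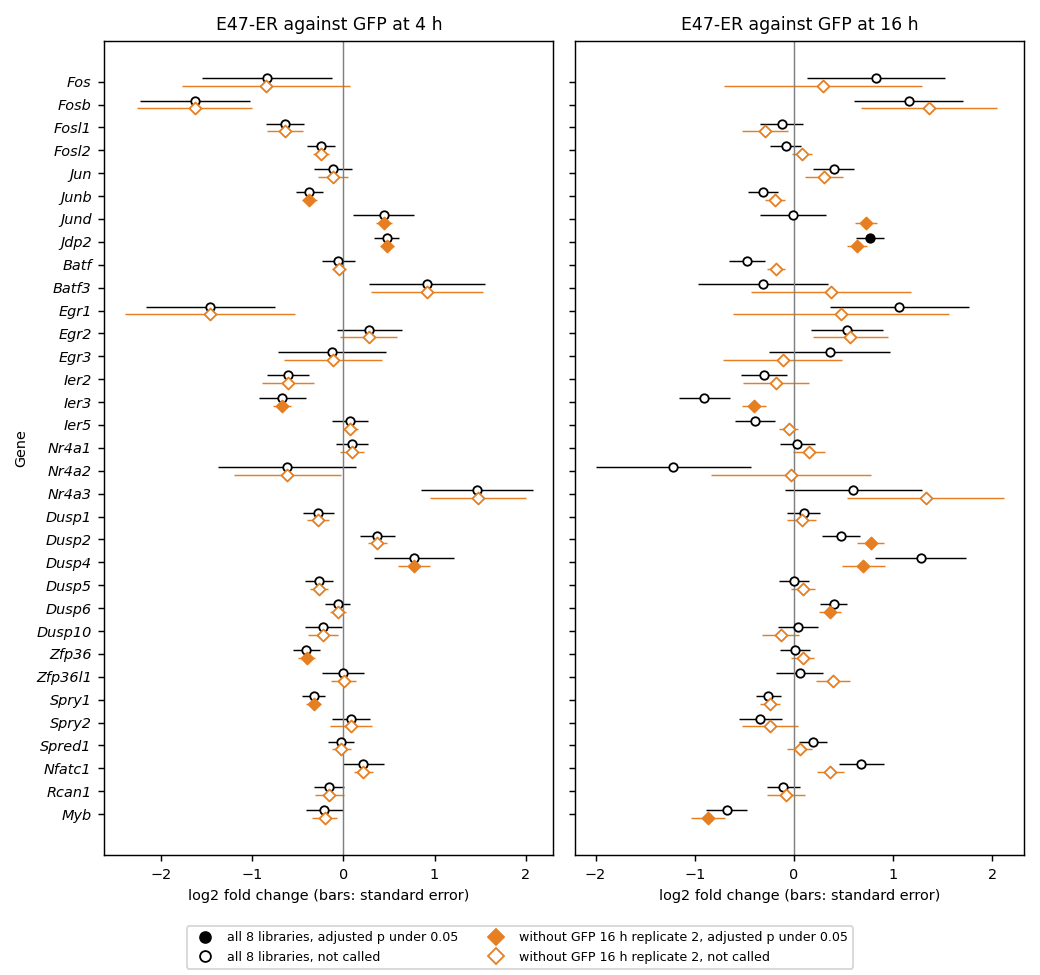
Log2 fold change of each gene in E47-ER against GFP cells at 4 h (left) and 16 h (right), with standard errors. Black circles are from the fit of all 8 libraries and orange diamonds from the fit without replicate 2 of GFP at 16 h; filled symbols passed an adjusted p of 0.05. Jdp2 at 16 h is the only filled black circle, and 7 orange diamonds are filled at each time.

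Jdp2 (chr12:85599027-85639878, plus strand, GRCm38) encodes a small leucine zipper protein that pairs with Jun proteins and represses AP-1 targets. It had 193 and 203 CPM in E47-ER cells at 16 h, against 127 and 105 CPM in GFP cells. At 4 h it had 197 and 201 CPM in E47-ER cells, against 153 and 134 CPM in GFP cells. The groups did not overlap at either time, and the E47-ER libraries of the 2 times lay within 193 to 203 CPM. The log2 fold change was 0.77 (SE 0.141, adjusted p = 0.0416) at 16 h and 0.47 (SE 0.140, adjusted p = 0.489) at 4 h with all 8 libraries. Once replicate 2 of the 16 h GFP group was left out it was 0.63 (SE 0.102, adjusted p = 0.000237) at 16 h and 0.48 (SE 0.0811, adjusted p = 0.000568) at 4 h. With all libraries the call at 16 h sat close to the threshold. It was lost in 11 of 18 alternatives, among them leaving out any 1 of the 6 libraries that were not GFP at 16 h, and the log2 fold change was 0.63 to 0.93 over them, with adjusted p-values up to 0.430.

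Among the Jun genes, Jund and Junb lay on opposite sides of the GFP level at 4 h. Jund (chr8:70698949-70700616, plus strand), a Jun protein generally made at a steady level, had 364 and 434 CPM in E47-ER cells at 4 h, against 283 and 304 CPM in GFP cells. At 16 h it had 421 and 473 CPM in E47-ER cells, against 269 and 633 CPM in GFP cells. The groups were separate at 4 h and overlapped at 16 h, where the 2 GFP libraries differed more than 2-fold. In log2 units the difference at 16 h was -0.01 (SE 0.334, adjusted p = 0.987) with all libraries and 0.73 (SE 0.111, adjusted p = 0.000109) with replicate 2 of GFP left out. With that library kept, the difference was also above 0 under voom, library totals, an offset by transcript length, no filter and both replicate blocks, so Jund had no settled direction at 16 h. At 4 h it was 0.44 (SE 0.335, adjusted p = 0.99985) with all libraries and 0.45 (SE 0.0875, adjusted p = 0.00269) without that library.

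Junb (chr8:84974484-84978718, minus strand), an AP-1 partner that often opposes Jun, had 448 and 488 CPM in E47-ER cells at 4 h, against 559 and 654 CPM in GFP cells. It had 545 and 583 CPM in E47-ER cells at 16 h, against 640.0 and 759.8 CPM in GFP cells. E47-ER libraries were below both GFP libraries at each time. The log2 fold change at 4 h was -0.38 (SE 0.149, adjusted p = 0.800) with all libraries and -0.37 (SE 0.0836, adjusted p = 0.00895) with replicate 2 of GFP at 16 h left out. At 16 h it was -0.31 (adjusted p = 0.237) and -0.19 (adjusted p = 0.286) in the 2 fits. Jun, the AP-1 partner of Fos, had 9.34 to 16.4 CPM over the 8 libraries and passed in neither vector comparison.

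Of the other AP-1 genes, Batf, which pairs with Jun proteins and IRF4 in lymphocytes, had 272 and 278 CPM in E47-ER cells at 4 h, against 294 and 277 CPM in GFP cells. At 16 h Batf had 256 and 249 CPM in E47-ER cells, against 285 and 416 CPM in GFP cells. Its groups overlapped at 4 h and were separate at 16 h, without passing the test (adjusted p = 0.176 with all libraries and 0.254 without replicate 2 of GFP). Fosl2, a Fos protein that lacks the strong activation domain of Fos, had 187 and 194 CPM in E47-ER cells at 4 h, against 228 and 226 CPM in GFP cells. Fosl2 at 16 h had 184 and 219 CPM in E47-ER cells, against 189.8 and 238 CPM in GFP cells. It lay lower in both E47-ER libraries at 4 h only, and was not called. Fosl1, the other Fos protein of that kind, ranged over 4.80 to 8.16 CPM and was not called. Batf3, a Batf relative needed by a dendritic cell type, stayed between 0.317 and 1.07 CPM.

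Ier3 was the gene with the smallest adjusted p at 4 h once the library that stood apart was left out. Ier3 (chr17:35821684-35822923, plus strand) encodes a short-lived stress protein that acts on cell survival and ERK signalling. It had 43.5 and 49.7 CPM in E47-ER cells at 4 h, against 68.8 and 79.7 CPM in GFP cells. It had 50.8 and 52.2 CPM in E47-ER cells at 16 h, against 67.7 and 126 CPM in GFP cells. All 4 E47-ER libraries were below all 4 GFP libraries. Its fitted log2 difference at 4 h was -0.67 (SE 0.260, adjusted p = 0.783) with all libraries and -0.67 (SE 0.0984, adjusted p = 8.94e-05) with replicate 2 of GFP at 16 h left out. At 16 h it was -0.90 (SE 0.261, adjusted p = 0.129) with all libraries and -0.40 (SE 0.119, adjusted p = 0.0351) without that library. The size at 16 h therefore moved more than 1.5 times with 1 library.

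The other Ier genes, whose products are less well understood, were not called. Ier2 had 72.2 and 89.6 CPM in E47-ER cells at 4 h, against 94.2 and 152 CPM in GFP cells, and 121 and 129 CPM in E47-ER cells at 16 h, against 141 and 168 CPM in GFP cells. It was lower in both E47-ER libraries than in both GFP libraries at each time, with an adjusted p of 0.752 at 4 h and 0.418 at 16 h over all libraries, and 0.429 and 0.830 without replicate 2 of GFP at 16 h. Ier5, a relative that takes part in the heat shock response, had 257 and 276 CPM in E47-ER cells at 4 h, against 266 and 241 CPM in GFP cells, and 243 and 228 CPM in E47-ER cells at 16 h, against 243 and 376 CPM in GFP cells. Its groups overlapped at 4 h and were separate at 16 h by a small margin.

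The dual-specificity phosphatases, which remove phosphate from ERK, JNK or p38, made up 3 of the 5 genes higher at 16 h without replicate 2 of GFP. Dusp2, a nuclear phosphatase of lymphocytes, had 46.7 and 45.1 CPM in E47-ER cells at 16 h, against 26.7 and 39.9 CPM in GFP cells, and 34.2 and 36.4 CPM in E47-ER cells at 4 h, against 24.97 and 29.5 CPM in GFP cells. Both E47-ER libraries were higher at each time. The log2 fold change at 16 h was 0.47 (SE 0.196, adjusted p = 0.196) with all libraries and 0.77 (SE 0.136, adjusted p = 0.000552) with replicate 2 of GFP left out. At 4 h it was 0.37 in both fits, with an adjusted p of 0.0519 without that library.

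Dusp4, a nuclear phosphatase for ERK and JNK, had 11.6 and 16.1 CPM in E47-ER cells at 4 h, against 7.59 and 8.61 CPM in GFP cells, and 12.2 and 15.4 CPM in E47-ER cells at 16 h, against 8.46 and 2.13 CPM in GFP cells. The groups were separate at both times, and the value of 2.13 CPM rests on 16 counts. At 4 h the log2 fold change was 0.77 in both fits (SE 0.437, adjusted p = 0.99985 with all libraries, and SE 0.175, adjusted p = 0.00986 with replicate 2 of GFP at 16 h left out). At 16 h it was 1.27 (SE 0.460, adjusted p = 0.166) with all libraries and 0.70 (SE 0.221, adjusted p = 0.0496) without that library.

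Dusp6, a cytoplasmic phosphatase specific for ERK, had 267 and 261 CPM in E47-ER cells at 16 h, against 204 and 195 CPM in GFP cells. At 4 h it had 206 and 207 CPM in E47-ER cells, against 193 and 238 CPM in GFP cells. The groups were separate at 16 h and overlapped at 4 h. The fitted log2 difference at 16 h was 0.40 (SE 0.137, adjusted p = 0.156) with all libraries and 0.36 (SE 0.108, adjusted p = 0.0366) with replicate 2 of GFP left out. Dusp5, a nuclear phosphatase for ERK, had 68.4 and 80.6 CPM in E47-ER cells at 4 h, against 81.9 and 98.0 CPM in GFP cells, and 96.6 and 104 CPM in E47-ER cells at 16 h, against 93.6 and 108 CPM in GFP cells. It lay lower in both E47-ER libraries at 4 h, overlapped at 16 h and was called in neither vector comparison. Dusp1, which acts on p38 and JNK, and Dusp10, likewise a phosphatase of those kinases, ranged over 49.1 to 73.9 CPM and 8.32 to 14.1 CPM and were not called.

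Among the other feedback genes, Zfp36, which encodes tristetraprolin, had 88.2 and 93.7 CPM in E47-ER cells at 4 h, against 106 and 135 CPM in GFP cells. At 16 h it had 115 and 117 CPM in E47-ER cells, against 109 and 122 CPM in GFP cells. It was lower in E47-ER cells at 4 h, and its groups overlapped at 16 h. The log2 fold change at 4 h was -0.41 in both fits (SE 0.150, adjusted p = 0.734 with all libraries, and SE 0.0964, adjusted p = 0.0140 with replicate 2 of GFP at 16 h left out). Its relative Zfp36l1 lay between 15.3 and 24.1 CPM and was not called.

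Spry1, an inhibitor of receptor signalling to ERK, had 155 and 151 CPM in E47-ER cells at 4 h, against 177 and 206 CPM in GFP cells, and 162 and 153 CPM in E47-ER cells at 16 h, against 185 and 192 CPM in GFP cells. All 4 E47-ER libraries were below all 4 GFP libraries. In log2 units the difference at 4 h was -0.33 (SE 0.128, adjusted p = 0.785) with all libraries and -0.33 (SE 0.0835, adjusted p = 0.0241) with replicate 2 of GFP at 16 h left out. At 16 h it was -0.26 and -0.24 and did not pass. The related Spry2 (3.47 to 4.93 CPM) and Spred1 (26.4 to 34.8 CPM) were not called.

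Myb, a transcription factor of progenitors and lymphocytes, had 33.4 and 30.1 CPM in E47-ER cells at 16 h, against 57.4 and 43.8 CPM in GFP cells. At 4 h it had 54.4 and 43.0 CPM in E47-ER cells, against 64.6 and 48.3 CPM in GFP cells. The groups were separate at 16 h and overlapped at 4 h. The log2 fold change at 16 h was -0.68 (SE 0.207, adjusted p = 0.136) with all libraries and -0.86 (SE 0.170, adjusted p = 0.00529) with replicate 2 of GFP left out. Nfatc1, the calcium-regulated partner of AP-1, had 44.9 to 56.0 CPM in the 4 E47-ER libraries and 23.6 to 41.7 CPM in the 4 GFP libraries. It was higher at both times without overlap and did not pass (adjusted p at 16 h 0.155 with all libraries and 0.0953 without replicate 2 of GFP). Rcan1, a feedback inhibitor of calcineurin, kept within 8.56 to 11.3 CPM.

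**Figure D3:**
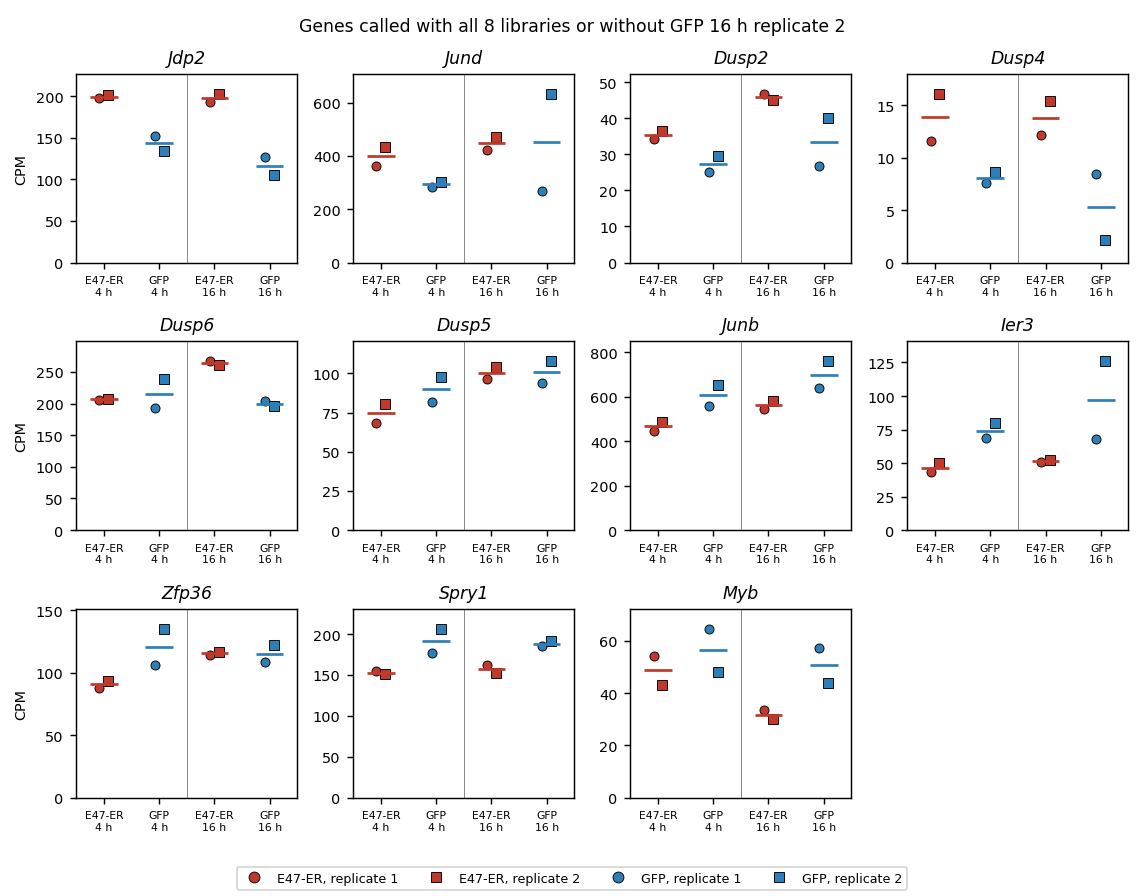
CPM (vertical axes, from 0) of the 11 genes that passed the test in any comparison, with all 8 libraries or without replicate 2 of GFP at 16 h. Circles are replicate 1, squares replicate 2 and lines the mean of 2, in E47-ER (red) and GFP (blue) cells at each time. Jdp2, Dusp2 and Dusp4 are higher and Junb, Ier3 and Spry1 lower in both E47-ER libraries at each time, while for Jund the GFP libraries at 16 h lie on both sides of the E47-ER libraries.

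Many genes had separate groups of 2 against 2, here as among all genes tested. At 4 h, 8 of 33 were higher in both E47-ER libraries than in both GFP libraries, against 22.4% of all genes, and 11 were lower, against 22.9%. At 16 h, 11 were higher, against 27.8%, and 9 lower, against 26.6%. Jdp2, Dusp2, Dusp4 and Nfatc1 were higher without overlap at both times, and Junb, Ier2, Ier3, Spry1 and Rcan1 were lower at both. Among all genes tested 11.9% were higher and 10.4% lower at both times. The exons of 11 of the 33 genes, among them Jdp2, Jund and Junb, overlap those of another gene, and since the strand setting of the counting is not given here, reads of such pairs may have been shared.

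E47 binds E-boxes, which read CANNTG. Shown are the promoter sequences of 4 of the called genes with separate groups at both times, 2 higher and 2 lower in E47-ER cells. They are 250 bases or less before the transcription start given by RefSeq (GRCm38.p6), without bases inside annotated exons, written from 5′ to 3′ on the strand of the gene, with E-boxes in capitals. They lie at chr12:85598855-85599026 (plus strand) for Jdp2, chr2:127335909-127336158 (plus) for Dusp2, chr17:35821463-35821683 (plus) for Ier3 and chr8:84978749-84978998 (minus) for Junb.
Jdp2: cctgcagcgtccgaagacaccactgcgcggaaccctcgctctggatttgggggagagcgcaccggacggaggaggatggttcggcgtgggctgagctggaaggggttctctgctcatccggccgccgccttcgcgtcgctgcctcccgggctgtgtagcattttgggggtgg
Dusp2: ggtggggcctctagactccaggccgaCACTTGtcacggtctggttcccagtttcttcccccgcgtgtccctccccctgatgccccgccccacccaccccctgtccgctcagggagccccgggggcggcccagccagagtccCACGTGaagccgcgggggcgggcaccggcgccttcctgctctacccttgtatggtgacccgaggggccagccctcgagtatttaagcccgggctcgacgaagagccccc
Ier3: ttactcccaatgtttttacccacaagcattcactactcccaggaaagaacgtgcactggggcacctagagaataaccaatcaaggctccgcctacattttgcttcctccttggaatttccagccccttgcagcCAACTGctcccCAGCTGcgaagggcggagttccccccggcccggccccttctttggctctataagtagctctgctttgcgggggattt
Junb: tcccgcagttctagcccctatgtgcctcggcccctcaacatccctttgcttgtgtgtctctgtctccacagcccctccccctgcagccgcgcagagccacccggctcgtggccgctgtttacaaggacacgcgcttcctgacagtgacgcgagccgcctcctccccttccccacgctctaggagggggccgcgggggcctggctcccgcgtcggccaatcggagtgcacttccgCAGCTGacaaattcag
Jdp2 held 0 E-boxes in this window. Dusp2 held CACTTG and CACGTG, Ier3 held CAACTG and CAGCTG, and Junb held 1 CAGCTG. A RefSeq promoter entry was found for 27 of the 33 genes, and 18 of these (66.7%) held an E-box on either strand in the 250 bases, against 69.3% of the 27025 genes with an entry. The letters CAGCTG, which the E-box count includes, occurred in Fos, Ier3, Junb and Jund, or 14.8% of the genes here against 14.7% of all. CAGGTG, also within that count, occurred in Fosb (3.70% against 19.4%). The AP-1 site TGANTCA was found for Rcan1 and Zfp36l1 (7.41% against 7.82%), the cyclic AMP response element TGACGTCA for Dusp1 and Rcan1 (7.41% against 1.77%), and the serum response element for Dusp5, Egr2 and Zfp36 (11.1% against 1.62%). The EGR site GCGTGGGCG was found in 0 of the 27, against 0.622% of all. Egr1, Egr3, Dusp4, Fosl1, Ier2 and Nfatc1 had no promoter entry and were not searched. Sites more than 250 bases before a start were not searched in any gene. RefSeq starts and the gene starts given above can differ. The Jund window (chr8:70697489-70697738) ends well before the gene start at 70698949. Those of Batf3, Fosl2, Dusp1, Dusp10, Nr4a1, Rcan1 and Zfp36 lie inside the annotated gene, as do all but the most upstream windows of Egr2 and Jdp2. Apart from the sites of Dusp5, the cyclic AMP and serum response elements named above lie in such windows. These motif matches describe letters and not binding.

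Egr1 and Fos, which serum and antigen receptor signals switch on together in many cells, differed more than 2-fold between the GFP replicates at both times. Egr1, a zinc finger transcription factor, had 43.6 and 43.7 CPM in E47-ER cells at 4 h, against 38.4 and 202 CPM in GFP cells, and 166 and 183 CPM in E47-ER cells at 16 h, against 125 and 41.1 CPM in GFP cells. Fos, named after its values were seen, had 4.86 and 3.17 CPM in E47-ER cells at 4 h, against 2.34 and 11.9 CPM in GFP cells, and 11.6 and 10.6 CPM in E47-ER cells at 16 h, against 9.001 and 2.80 CPM in GFP cells. For both genes the same 4 libraries were low and the same 4 high. E47-ER replicates lay close to each other at each time, whereas in each GFP group 1 library was low and 1 was high, at 4 h replicate 2 being the high one and at 16 h replicate 1. The larger GFP value was 5.24 times the smaller at 4 h and 3.04 times at 16 h for Egr1, and 5.11 and 3.22 times for Fos.

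**Figure D4:**
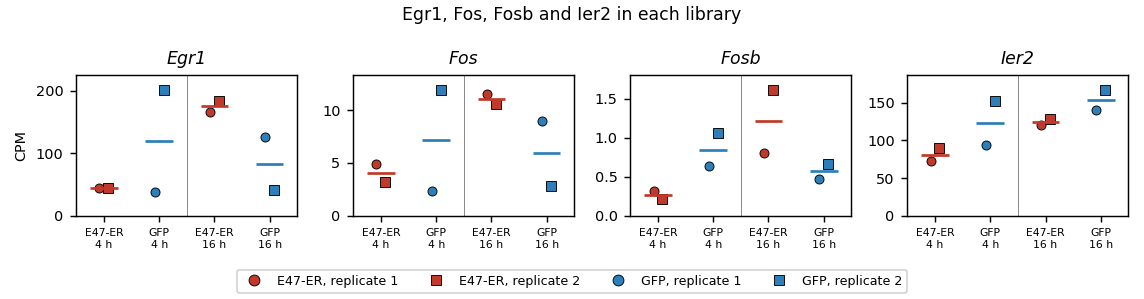
CPM (vertical axes, from 0) of Egr1, Fos, Fosb and Ier2 in each library, with circles for replicate 1, squares for replicate 2 and lines for the mean of 2. For Egr1 and Fos the 2 E47-ER libraries of a time lie close together, low at 4 h and high at 16 h, while each GFP group holds 1 low and 1 high library.

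Neither gene passed in a vector comparison. For Egr1 the log2 fold change was -1.46 (SE 0.710, adjusted p = 0.933) at 4 h, where the groups overlapped, and 1.06 (SE 0.699, adjusted p = 0.358) at 16 h, where they did not, with all libraries. Leaving out replicate 2 of GFP at 16 h gave -1.47 (SE 0.935, adjusted p = 0.588) at 4 h and 0.48 (SE 1.09, adjusted p = 0.869) at 16 h. Replicate ratios over all genes were taken after adding 0.5 CPM to each value, which shrinks those of low genes. On that scale the 2 replicates differed more than 2-fold for 0.498% in E47-ER cells at 4 h, 0.770% in GFP cells at 4 h, 0.469% in E47-ER cells at 16 h and 12.2% in GFP cells at 16 h. On the same scale, 0 of the 33 genes did in E47-ER cells at either time, Fos and Egr1 did in GFP cells at 4 h, and Fos, Egr1, Jund, Nr4a2 and Dusp4 did in GFP cells at 16 h. Without the added 0.5 CPM, Batf3 in E47-ER cells at 4 h, Fosb and Nr4a3 in E47-ER cells at 16 h, Nr4a2 in GFP cells at 4 h and Batf3, Egr3 and Nr4a3 in GFP cells at 16 h also differed more than 2-fold, all of them genes under 1 CPM on average. Egr2 and Egr3, relatives of Egr1 induced by antigen receptors, were low, at 1.71 to 4.21 CPM and 0.266 to 1.07 CPM. The orphan nuclear receptor Nr4a1, also a readout of antigen receptor signals, lay between 19.1 and 24.5 CPM in all 8 libraries, and Nr4a2 and Nr4a3 between 0.384 and 2.00 CPM and 0.336 and 1.66 CPM.

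Between 4 h and 16 h in E47-ER cells, 0 of 33 genes passed with all 8 libraries, against 0.0147% of all genes. There 9 of the 33 and 695 genes in all stood at an unadjusted p under 0.05, and DESeq2 called 0. Without replicate 2 of GFP at 16 h, Dusp5 (log2 fold change 0.42, SE 0.0988, adjusted p = 0.0215) and Dusp6 (0.34, SE 0.0869, adjusted p = 0.0347) were higher at 16 h and Myb (-0.63, SE 0.144, adjusted p = 0.0327) was lower, 3 of 33 against 3.08% of all genes (1.74% higher and 1.34% lower). A fit of the 4 E47-ER libraries alone, whose replicates lay close together, called 10 of the 31 genes it tested higher at 16 h, against 4.22% of all genes, and 1, Myb, lower, against 3.1%, or 11 in all against 7.32%. The 10 were Egr1, Fos, Fosb, Ier2, Jun, Junb, Zfp36, Dusp2, Dusp5 and Dusp6. In that fit the log2 fold change of Egr1 was 2.00 (SE 0.0843, adjusted p = 3.38e-15), and with all 8 libraries it was 2.00 with an SE of 0.720 and an adjusted p of 0.981. The smaller SE rests on the E47-ER libraries alone and leaves out the wide spread of Egr1 between the GFP replicates. Both E47-ER libraries at 16 h were above both at 4 h for 15 of the 33 genes, against 25.9% of all genes, and below both for 4, against 24.5%.

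In GFP cells 0 of 33 genes passed between the times, as did 0% of all genes, and 0 of the 33 and 1238 genes in all had an unadjusted p under 0.05, with 0 called by DESeq2. Without replicate 2 of GFP at 16 h, 0 of 33 passed, against 0.00707%, and 2 of the 33 and 881 genes in all had an unadjusted p under 0.05. Spry2 and Rcan1 were higher in both GFP libraries at 16 h than in both at 4 h, 2 of 33 against 18.7% of all genes, and Jdp2, Fosl1, Spred1 and Nfatc1 were lower, 4 of 33 against 18%. The difference between the E47-ER effects at 16 h and at 4 h, which is the test of whether time altered the effect of the vector, passed for 0 of 33 genes and 0% of all genes. DESeq2 called 0 as well, and 3 of the 33 and 671 genes in all had an unadjusted p under 0.05. Those 3 were Fosb (2.78, SE 0.816), Egr1 (2.52, SE 0.996) and Dusp6 (0.46, SE 0.193), in log2 units and each with an adjusted p of 0.699. Fosb, a Fos relative given here after its values were seen, had 0.320 and 0.216 CPM in E47-ER cells at 4 h, against 0.632 and 1.06 CPM in GFP cells, and 0.801 and 1.62 CPM in E47-ER cells at 16 h, against 0.470 and 0.666 CPM in GFP cells, from 3 to 28 counts a library. Its E47-ER libraries lay below both GFP libraries at 4 h and above both at 16 h. When the GFP library that stood apart was left out, 0 of 33 passed for the difference, against 0.0424%, and an unadjusted p under 0.05 was reached by 7 of the 33 and by 1107 of the 14146 genes tested. An effect called at one time and not at the other, such as that of Zfp36 or Myb, was therefore not shown to differ between the times.

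Genes of the same pathways outside the 33 were read from lists made with earlier results of these data known. Of the other AP-1 and bZIP genes and their partners, 12 of 14 were tested, and 1 was higher in E47-ER cells at each time with all libraries. It was Irf8, a partner of Batf that is not a bZIP protein, with 54.7 and 52.2 CPM in E47-ER cells at 4 h, against 15.4 and 20.7 CPM in GFP cells, and 57.8 and 67.7 CPM in E47-ER cells at 16 h, against 16.2 and 11.9 CPM in GFP cells. Its log2 fold change was 1.56 (SE 0.199, adjusted p = 0.0307) at 4 h and 2.14 (SE 0.207, adjusted p = 0.00381) at 16 h. Irf4, also a partner of Batf, went the other way at 16 h, with 69.2 and 60.5 CPM in E47-ER cells, against 145 and 85.8 CPM in GFP cells. With all libraries edgeR did not call Irf4, and DESeq2 called it lower at 16 h (log2 fold change -0.84, adjusted p = 0.0386). The median log2 fold change of that list was 0.09 at 4 h and 0.19 at 16 h. Of 29 tested among 32 other immediate early genes, 0 passed at 4 h and 1 rose at 16 h, Zfp36l2, another mRNA decay factor of the ZFP36 family, with 464 and 474 CPM in E47-ER cells and 253 and 210.4 CPM in GFP cells (log2 fold change 1.02, SE 0.136, adjusted p = 0.0139). Zfp36 and Zfp36l1 did not pass at 16 h in the same fit.

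Of 33 genes tested among 35 of the MAP kinase cascade, 0 passed at 4 h and 1 was higher in E47-ER cells at 16 h. Map3k8, a kinase upstream of ERK, then had 84.1 and 81.3 CPM in E47-ER cells, against 49.6 and 43.3 CPM in GFP cells (log2 fold change 0.83, SE 0.130, adjusted p = 0.0238). Its values at 4 h were 70.8 and 66.1 CPM in E47-ER cells, against 51.8 and 48.8 CPM in GFP cells. Of 24 genes tested among 25 other feedback genes, 0 passed at 4 h. At 16 h Errfi1, an inhibitor of EGF receptor signalling, was higher and Phlda1 lower in E47-ER cells than in GFP cells. Errfi1 had 44.4 and 58.4 CPM in E47-ER cells at 16 h, against 20.9 and 23.0 CPM in GFP cells (log2 fold change 1.23, adjusted p = 0.0197). Its values at 4 h were 49.2 and 57.3 CPM in E47-ER cells, against 24.0 and 28.4 CPM in GFP cells. Phlda1, a gene of the ERK response, had 44.8 and 47.9 CPM in E47-ER cells at 16 h, against 105 and 213 CPM in GFP cells (log2 fold change -1.77, adjusted p = 0.0329). Its values at 4 h were 49.0 and 56.8 CPM in E47-ER cells, against 95.6 and 120 CPM in GFP cells. Of 17 calcium and NFAT genes, 0 passed at either time in edgeR. At an unadjusted p under 0.05 there were 0 of them at 4 h and 8 at 16 h, and DESeq2 called 0 at 4 h and 1 higher at 16 h. Over all 13644 genes tested, an unadjusted p under 0.05 was reached by 794 at 4 h and by 3273 at 16 h. Of 6 heat shock genes, another early stress response, 0 passed at either time, 1 at 4 h and 3 at 16 h had an unadjusted p under 0.05, and DESeq2 called 0 at 4 h and 3 lower at 16 h.

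The median log2 fold changes at 4 h and 16 h were -0.03 and 0.09 for the immediate early genes, -0.05 and 0.07 for the cascade, -0.02 and 0.21 for the feedback genes, 0.01 and 0.25 for the calcium and NFAT genes and -0.26 and -0.34 for the heat shock genes, beside medians near 0 for all genes tested. Leaving out replicate 2 of GFP at 16 h moved the 16 h medians to 0.12 for the AP-1 list, 0.16 for the immediate early genes, -0.00465 for the cascade, 0.06 for the feedback genes, 0.05 for the calcium and NFAT genes and -0.50 for 8 heat shock genes. Over the lists with 0 called at 4 h, an unadjusted p under 0.05 was reached by 6 of the immediate early genes, 1 of the cascade and 3 of the feedback genes, and DESeq2 called 1 higher, 0 and 1 higher. At 16 h DESeq2 with all libraries called 1 higher and 2 lower of the AP-1 list and 4 higher and 2 lower of the immediate early genes. It called 2 higher and 1 lower of the cascade, and likewise 2 higher and 1 lower of the feedback genes. Without replicate 2 of GFP at 16 h, Irf8, Zfp36l2, Map3k8 and Errfi1 were higher and Phlda1 lower at both times. The log2 fold changes at 16 h were then 1.95 for Irf8, 0.88 for Zfp36l2, 0.73 for Map3k8 and 1.29 for Errfi1. The log2 fold change of Phlda1 at 16 h was then -1.18 (SE 0.125, adjusted p = 1.34e-06), against -1.77 with that library. In that fit the counts at 4 h were 2 higher and 0 lower of the AP-1 list, 3 and 3 of the immediate early genes, 2 and 1 of the cascade, 1 and 3 of the feedback genes, 1 and 0 of the calcium and NFAT genes, and 0 and 2 of 8 heat shock genes, beside 2.64% higher and 1.68% lower of all genes. The counts at 16 h were 2 higher and 2 lower of the AP-1 list, 5 and 3 of the immediate early genes, 3 and 0 of the cascade, 3 and 1 of the feedback genes, 1 and 0 of the calcium and NFAT genes, and 0 and 4 of 8 heat shock genes, beside 4.39% higher and 4.53% lower of all genes.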

How the data were processed

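Total RNA of 8 libraries was sequenced, 2 for each of 4 groups, with groups taken from the sample titles. The authors deposited raw counts per Ensembl gene, which were not normalized. Per the submitters' processing notes the build was mm10 and DESeq2 was used; the aligner, the counter, its strand setting and its gene annotation are not given in these sources. Of 50686 IDs, 50376 matched GENCODE M21 (GRCm38) and 310 did not. Totals ran from 8813782 to 18677675 counts.

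Tests used edgeR 4.0.16 in R 4.3.3, with TMM scaling, filterByExpr with a minimum count of 10 (13644 genes left, all 33 members among them) and a robust quasi-likelihood model with 1 mean per group over all 8 libraries. The Benjamini-Hochberg adjustment ran over all genes tested, tests were two-sided, and an adjusted p under 0.05 counted as called. CPM used TMM-scaled library sizes. A member was given library by library when it was called in any comparison, with all libraries or without replicate 2 of GFP at 16 h, or averaged 100 CPM or more. Fos and Fosb were added after their values were seen. Genes outside the 33 were named when called by edgeR with all libraries, and Irf4 was added after its values were seen. The members and the lists were chosen with earlier results of these data known. Alternatives were DESeq2 1.42.0, limma voom 3.58.1 with quality weights, RLE scaling, library totals, an offset by transcript length, no filter, a minimum count of 30, a replicate block within or across times, the compared libraries alone, and each library left out. Only the edgeR fit was tested on simulated data, for the comparison of E47-ER with GFP at 4 h. Promoters were read from RefSeq tables of GRCm38.p6; plots came from matplotlib 3.10.9 (Python 3.11.15).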

Additional observations from a re-analysis of the deposited data

How the results depend on the processing

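The number of the 33 genes called depended on the fit and moved with either GFP library at 16 h, and with 2 libraries a group the estimated spread rests on few values. At 4 h (0 with all libraries) voom called 3, the fit with no filter on low counts 1 and the fit of the compared libraries alone 5; leaving out 1 library gave 0 to 7, with 7 without either GFP library at 16 h. At 16 h (1 with all libraries) DESeq2 called 4, the offset by transcript length 2 and the fit with no filter 5, while voom, library totals and the compared libraries alone called 0; leaving out 1 library gave 0 to 12, with 7 without replicate 2 of GFP and 12 without replicate 1, where the library that stood apart is the only GFP library. Between the times in E47-ER cells (0 with all libraries) voom called 4 and the E47-ER libraries alone 11, and leaving out 1 library gave 0 to 4. For the difference between the effects and for time in GFP cells (0 each), leaving out 1 library gave 0 to 9 and 0 to 10, and the 9 and the 10 came without replicate 1 of GFP at 16 h. The compared libraries alone could not be used for the difference, which needs all 4 groups. The number of all genes called moved as well. At 4 h it was 39 with all libraries, 122 with DESeq2 and 405 with voom. With the compared libraries alone it was 442 of 13087. At 16 h it was 217 with all libraries and 6 of 13101 with the compared libraries alone. Between the times in E47-ER cells it was 2 with all libraries and 957 of 13075 with the E47-ER libraries alone. The shifts among the 33 are therefore not read as particular to them. The cause of these shifts was not tested.

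The direction of Jund at 16 h (-0.01 on the log2 scale with all libraries) was opposite with voom (0.0888), library totals (0.171), the offset by transcript length (0.200) and no filter (0.0789), and ran from -0.48 to 0.73 when 1 library was left out. Scaling by library totals moved the median of all genes at 16 h to 0.115, against -0.00573 with TMM, so relative to that median the value of Jund there is smaller. Same-numbered libraries did not deviate together (correlations of -0.0901 to 0.202), so replicate numbers were not taken to pair them. A replicate block within each time or across times called 0 of 33 at 16 h and gave Jund a log2 fold change of 0.114 and 0.0659; it called 0 in the other comparisons too. Depth limits Fosb, Batf3, Egr3, Nr4a2 and Nr4a3, which had at most 28 counts in any library.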
